A study of Mus musculus with 15 samples.

Results

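The lysosome and autophagy genes examined here are 43 genes chosen by symbol from the count table of 40402 genes, because degradative compartments are where particles taken up by a cell commonly end. They comprise the TFEB family of transcription factors (3 genes), lysosomal membrane proteins (6), lysosomal proteases (6), glycosidases, a sulfatase and lipid-binding proteins (10), the proton pump (5), the autophagy receptor Sqstm1 with the ATG8 family (5), and genes of autophagy initiation and membrane elongation (8). All 43 were in the table, and all passed the filter on low counts (a value of 1 in at least 1 library in CPM, counts scaled to the size of the library), which kept 17594 genes. The lowest member value in any library was 3.94 CPM, so that no gene entered through the one condition where it was high.

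Bulk RNA-seq was performed on 4T1 cells, a transplantable mouse mammary carcinoma line, labelled wild type (WT) and grown with fetal bovine serum. The 5 conditions were untreated cells and cells given blackberry extract (BLA), blueberry extract (BLU), blackberry gold nanoparticles (BLA-A) or blueberry gold nanoparticles (BLU-A). Treatment started 24 h after seeding, and the labels do not state the time of harvest. The gold particles were made by reacting gold salt with an extract, so BLA-A and BLU-A differ from BLA and BLU both in gold and in how the extract was processed, and gold particles without a fruit extract were not analysed here. The 15 labelled samples are 3 columns for each condition, and within a condition these differed by less than sampling noise (chi-square per degree of freedom of 0.0951 to 0.475). The study's methods count unspecified replicates as independent biological ones, while its sequencing supplement lists 1 set of raw reads per condition with 3 read subsets drawn from it. The columns were averaged and counted as 1 library, so a single treatment has no replicate check and no p-value. The labels give a different batch date to each of the 15 samples, so condition and date cannot be told apart.

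Lysosomes are acidic compartments in which hydrolases break down material delivered by endocytosis or by autophagy, and the vacuolar proton pump keeps their lumen acidic. Autophagy encloses cytoplasm in a double membrane: the ULK1 and Beclin 1 complexes start the process, ATG9A vesicles supply membrane, and lipid-linked ATG8 proteins extend the membrane and bind cargo receptors such as SQSTM1. TFEB, TFE3 and MITF enter the nucleus when mTORC1 at the lysosome is inactive and bind a CACGTG core in the promoters of many of these genes.

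The promoters that carry this core are shown first, because this core is the sequence that the TFEB family binds. Among the 38 members with an entry in the RefSeq promoter table (250 bases before to 50 bases after the start, build GRCm38.p6), 13 held CACGTG, which reads the same on both strands, against 8.09% of the 27025 genes in that table. The longer form TCACGTG, searched on both strands (so that CACGTGA also counted), was present in 11 members, or 28.9%, and in 4.29% of all genes in the table. Among the 13284 genes that were both kept and in the table, 10.4% held the core and 5.97% the longer form. The other pathway lists described below also lay above these shares. The longer form was in 25% of mTORC1 and nutrient sensing genes and 24% of other membrane and sorting genes. It was in 16.7% of other pump subunits, 12.5% of other autophagy and of damage response genes, and 12% of other hydrolases. Each match of the longer form also contains the core. The stretches below are the 6 members with the longer form and the largest change in any treatment, read 5′ to 3′ on the strand of the gene, and the capitals mark the longer form, with overlapping matches merged.
Sgsh (chr11:119355513-119355559, minus strand): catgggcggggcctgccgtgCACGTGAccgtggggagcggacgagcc
Ctsd (chr7:142387899-142387946, minus strand): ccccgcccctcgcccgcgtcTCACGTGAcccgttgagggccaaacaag
Gaa (chr11:119267802-119267848, plus strand): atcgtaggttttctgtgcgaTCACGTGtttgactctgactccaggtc
Lamp1 (chr8:13159079-13159160, plus strand): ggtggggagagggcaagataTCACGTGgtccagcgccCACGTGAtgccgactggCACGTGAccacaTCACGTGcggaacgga
Ctsa (chr2:164833740-164833772, plus strand): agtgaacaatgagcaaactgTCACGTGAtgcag
Atp6v0d1 (chr8:105566061-105566088, minus strand): agagccaggccctactgcggTCACGTGA
The promoter of Lamp1 held 4 cores, all within the 61 bases before the start. In Atp6v0d1 the match spans the start itself. The other 5 members with the longer form were Atg7, Mcoln1, Glb1, Atp6v1a and Gla. A match is a description of these letters, and no binding was measured.

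The members stood apart from the other conditions mainly in BLA-A-treated cells. Their median log2 fold change against untreated cells, taken on CPM after TMM scaling with 0.5 added, was 0.53 with BLA-A, -0.06 with BLA, -0.14 with BLU and -0.06 with BLU-A, while the medians over all genes kept lay between -0.01 and 0.00. With BLA-A, 10 of 43 members were higher and 2 lower by more than 1 on the log2 scale, against a background of 8.55% of all genes higher and 12.3% lower. At a log2 fold change of 0.5, 22 members were higher and 3 lower, against 23.4% and 26.0% of all genes. Restricting the background to the 9770 genes with a mean of at least 10 CPM was a comparison added after the data were seen. It gave 7.86% higher and 4.71% lower past a log2 fold change of 1, against 10 and 2 of the 42 members in it. Past 0.5, 2472 of the 9770 genes were higher and 1594 lower, against 21 and 3 of these members. The median was 0.10 over the 9770 genes and 0.51 over these members. The mean used for this filter includes BLA-A. Neu1 and Sgsh, both among the 10 past 1, were under 10 CPM in every other library. Applied before TMM scaling, the filter kept 41 members, with 9 higher and 2 lower past 1. BLA-A was the highest of the 5 libraries for 31 members and the lowest for 6. For all genes these shares were 29.4% and 32.7%, and among genes with a mean of at least 10 CPM BLA-A was highest in 38.4%, against 30 of the 42 members.

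In the other 3 treatments a single call was made. Mitf was higher with BLA, where the background was 7.91% of genes higher and 8.51% lower. No member passed with BLU (background 5.64% higher and 4.62% lower) or with BLU-A (3.39% and 4.49%). Among the 9770 genes with a mean of at least 10 CPM, 353 were higher and 156 lower with BLA. The counts were 193 and 40 with BLU, and 74 and 10 with BLU-A. At those shares few or no calls would be made in a list of 43 genes. The exact 95% binomial interval of a member's log2 fold change reached a median of 0.10 and at most 0.35 to either side, and it covers counting error only. The BLA-A library also differed as a whole: its TMM factor was 0.904 against 1.01 to 1.03 in the other 4 libraries, and 16106 genes in it reached a mean of 10 counts against 17951 to 19504. Total counts ran from 25613711 to 26956308 per library.

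**Figure D1:**
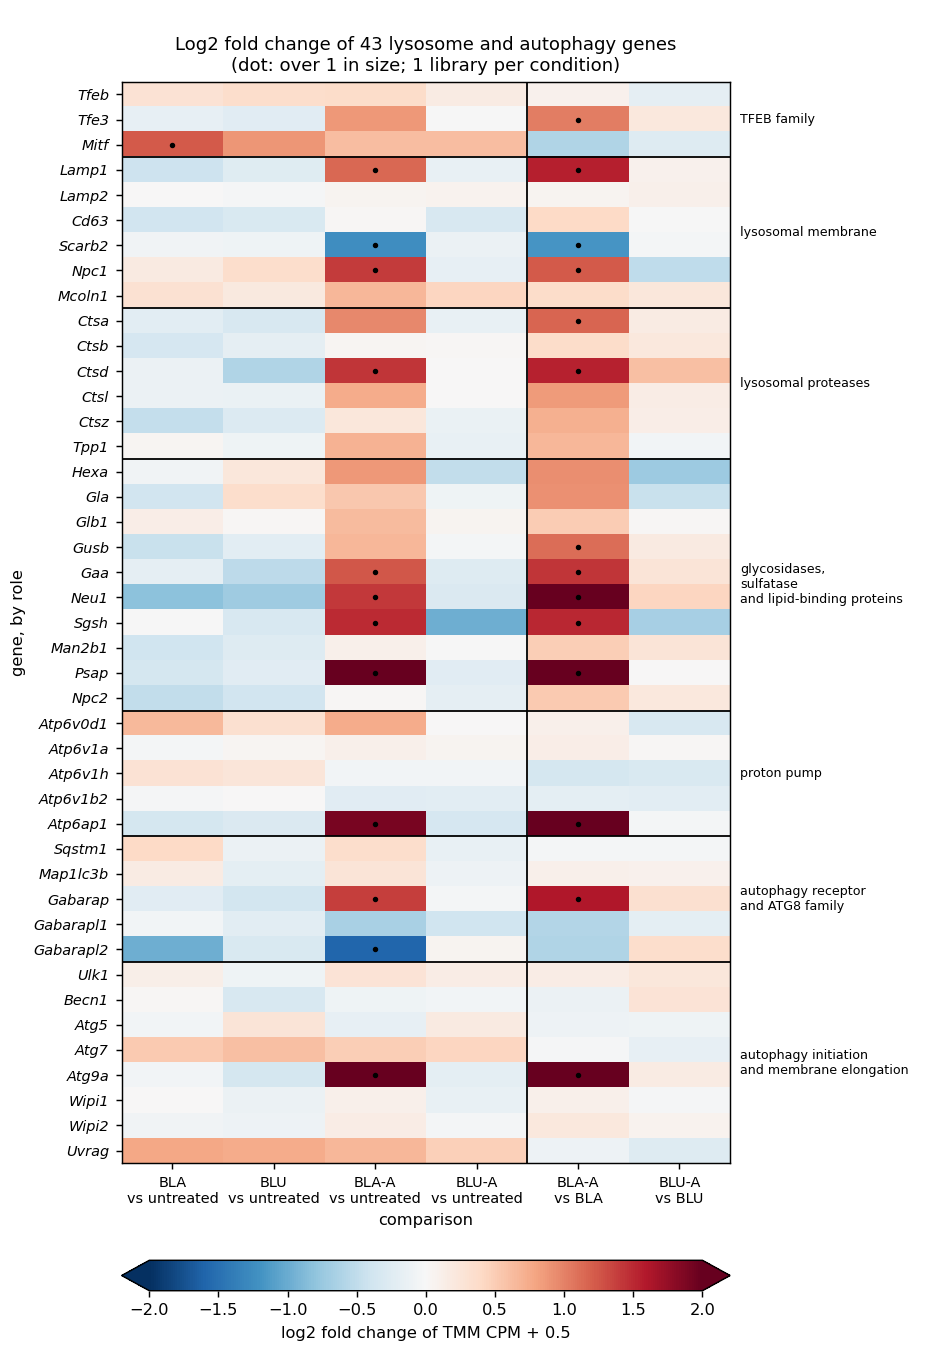
Log2 fold change (TMM CPM plus 0.5) of each of the 43 genes, in rows by role, for the 4 treatments against untreated cells and for each nanoparticle against the extract of the same fruit. Colours saturate at 2 in size, and dots mark values over 1 in size. Dots fall almost entirely in the columns that involve BLA-A, except for Mitf under BLA.

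Of the TFEB family, which drives transcription of lysosomal genes, no member passed a log2 fold change of 1 with BLA-A. Mitf was lowest in untreated cells, at 32.3 CPM, and was at 76.0 with BLA, 59.7 with BLU, 50.0 with BLA-A and 49.7 with BLU-A. All 4 treated libraries were therefore above the untreated one, by 1.22 with BLA (95% counting interval 1.12 to 1.35), 0.88 with BLU, 0.62 with BLA-A and 0.62 with BLU-A on the log2 scale. Tfe3 had another pattern, at 47.7 CPM in untreated cells, 42.5 with BLA, 40.8 with BLU, 87.1 with BLA-A and 47.2 with BLU-A, so that only the BLA-A library stood out (log2 fold change 0.86). Tfeb, the member after which the family is often named, was lowest in untreated cells, at 10.8 CPM, and was at 13.2 with BLA, 13.8 with BLU, 14.0 with BLA-A and 12.2 with BLU-A.

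Among lysosomal membrane proteins, Lamp1 and Npc1 were higher and Scarb2 was lower with BLA-A. Lamp1 encodes an abundant glycoprotein of the limiting membrane (chromosome 8, 13209121 to 13227360, GRCm39). It was at 572 CPM with BLA-A, against 259 in untreated cells, 193 with BLA, 219 with BLU and 233 with BLU-A. Its log2 fold change was 1.14, and 0.95 when libraries were scaled by total counts alone. Npc1, which exports cholesterol from the lysosome, was at 62.6 CPM with BLA-A, 23.3 in untreated cells, 26.4 with BLA, 29.96 with BLU and 20.8 with BLU-A. Scarb2 (LIMP-2), the carrier that brings glucocerebrosidase to the lysosome, went the other way and was the most abundant member per kilobase of annotated exon in untreated cells (166 CPM per kb, from counts that include introns). It was at 484 CPM with BLA-A, 1146 in untreated cells, 1093 with BLA, 1084 with BLU and 1051 with BLU-A (log2 fold change -1.24, interval -1.27 to -1.21). Lamp2, which has a key part in chaperone-mediated autophagy, was at 211 CPM in untreated cells, 213 with BLA, 208 with BLU, 220.1 with BLA-A and 223 with BLU-A. The tetraspanin Cd63 (98.8 to 130.3 CPM) and the calcium channel Mcoln1 (25.3 to 40.5 CPM) did not pass the fold in any comparison.

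The lysosomal proteases were above their untreated level with BLA-A, with a median log2 fold change of 0.72 over 6 genes and 1 gene past 1. Ctsd, which encodes the aspartic protease cathepsin D (chromosome 7, 141929646 to 141941775), was at 427 CPM with BLA-A, 158 in untreated cells, 146 with BLA, 104 with BLU and 159 with BLU-A. Its log2 fold change with BLA-A was 1.43. Ctsa, a serine carboxypeptidase that also protects neuraminidase 1 and beta-galactosidase, was at 139 CPM with BLA-A, 71.6 in untreated cells, 61.7 with BLA, 57.4 with BLU and 64.4 with BLU-A. The cysteine protease Ctsl was at 1397 CPM with BLA-A against 759 to 839 CPM elsewhere. Ctsb, another cysteine protease, showed the smallest changes, with 460 CPM in untreated cells, 364 with BLA, 408 with BLU, 471 with BLA-A and 469.5 with BLU-A. The exopeptidases Ctsz and Tpp1 were 0.23 and 0.70 higher on the log2 scale with BLA-A.

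The glycosidases, the sulfatase and the lipid-binding proteins had a median log2 fold change of 0.76 with BLA-A, and all 10 were above the untreated level there. Psap encodes the precursor of the saposins, which present sphingolipids to the hydrolases (chromosome 10, 60113431 to 60138380). It was at 549.6 CPM with BLA-A, 136 in untreated cells, 107 with BLA, and 116 with both BLU and BLU-A. The BLA-A level was 4.03 times that of untreated cells (log2 fold change 2.01, interval 1.96 to 2.07), and the other treated libraries lay below the untreated one. Sgsh, the sulfamidase of heparan sulfate breakdown, was at 24.2 CPM with BLA-A, 8.26 in untreated cells, 8.20 with BLA, 6.53 with BLU and 3.94 with BLU-A, so that the 2 nanoparticle libraries were the extremes. Gaa, the acid alpha-glucosidase that degrades glycogen, was at 136 CPM with BLA-A, 57.5 in untreated cells, 50.5 with BLA, 39.8 with BLU and 47.9 with BLU-A. Neu1, the lysosomal sialidase, was at 26.1 CPM with BLA-A, 9.48 in untreated cells, 5.12 with BLA, 5.57 with BLU and 7.67 with BLU-A, with BLA and BLU the lowest libraries. Gusb (beta-glucuronidase) was at 129.9 CPM with BLA-A, 81.7 in untreated cells, 59.9 with BLA, 70.6 with BLU and 79.7 with BLU-A. Man2b1, a lysosomal alpha-mannosidase, was at 69.9 CPM in untreated cells, 52.7 with BLA, 58.3 with BLU, 74.7 with BLA-A and 69.6 with BLU-A. Hexa, Gla and Glb1, which act on glycolipids, were 0.86, 0.53 and 0.63 higher with BLA-A on the log2 scale, and the sterol carrier Npc2 was 0.03 higher.

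In the proton pump 1 of 5 members was higher past a log2 fold change of 1 with BLA-A, and 2 were higher past 0.5. Atp6ap1, an accessory subunit that assists assembly of the pump (chromosome X, 73340697 to 73348328), was at 162 CPM with BLA-A, 43.1 in untreated cells, 33.6 with BLA, 35.3 with BLU and 34.2 with BLU-A, so that the 3 other treated libraries were all below the untreated one. Atp6v0d1, a subunit that joins the 2 sectors of the pump, was at 44.1 CPM with BLA-A, 26.0 in untreated cells, 41.1 with BLA, 32.7 with BLU and 26.2 with BLU-A. The catalytic subunit Atp6v1a was at 111 CPM in untreated cells, 108 with BLA, 114 with BLU, 118 with BLA-A and 115 with BLU-A. Atp6v1h and Atp6v1b2 were 0.06 and 0.22 lower with BLA-A on the log2 scale.

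The ATG8 family split within BLA-A. Gabarap (chromosome 11, 69881888 to 69886109) was at 158 CPM with BLA-A, 60.6 in untreated cells, 51.5 with BLA, 46.7 with BLU and 58.7 with BLU-A. Gabarapl2, its close relative, was at 11.3 CPM with BLA-A, 34.8 in untreated cells, 17.5 with BLA, 28.0 with BLU and 36.0 with BLU-A. The log2 fold change of Gabarap with BLA-A was therefore 1.38 and that of Gabarapl2 -1.58 (interval -1.83 to -1.43), and Gabarapl1 was at -0.65 (36.5 CPM in untreated cells, 35.1 with BLA, 31.5 with BLU, 23.1 with BLA-A and 27.5 with BLU-A). Map1lc3b, which encodes the widely used autophagosome marker LC3B, was at 60.5 CPM in untreated cells, 67.8 with BLA, 52.9 with BLU, 72.5 with BLA-A and 56.3 with BLU-A, the smallest change in this group. The receptor Sqstm1 (p62) was highest with BLA, at 523 CPM, against 398 in untreated cells, 368 with BLU, 507 with BLA-A and 360.2 with BLU-A. How reads from the similar coding sequences of this family were divided in the counting was not tested.

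Of the 8 genes of autophagy initiation and membrane elongation, Atg9a alone passed a log2 fold change of 1 with BLA-A. Atg9a, which encodes the lipid scramblase of the seed vesicles (chromosome 1, 75157503 to 75169327), was at 104 CPM with BLA-A, 24.6 in untreated cells, 23.6 with BLA, 19.2 with BLU and 21.5 with BLU-A, which made its log2 fold change of 2.06 (interval 1.96 to 2.21) the largest of the 43 members. The kinase gene Ulk1 (50.8 to 65.4 CPM), the Beclin 1 gene Becn1 (38.9 to 49.6 CPM), Atg5 (28.6 to 38.5 CPM) and the phosphoinositide-binding Wipi1 (87.3 to 104.5 CPM) did not pass the fold in any comparison. Wipi2, the relative of Wipi1, was at 119 CPM in untreated cells, 113 with BLA, 111 with BLU, 132 with BLA-A and 116 with BLU-A. Uvrag, a partner of Beclin 1, was at 65.0 CPM in untreated cells, 111 with BLA, 109 with BLU, 103 with BLA-A and 90.7 with BLU-A. Atg7, the E1-like enzyme of ATG8 conjugation, was likewise lowest in untreated cells, at 29.0 CPM against 39.4 to 44.1 CPM in the treated libraries.

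**Figure D2:**
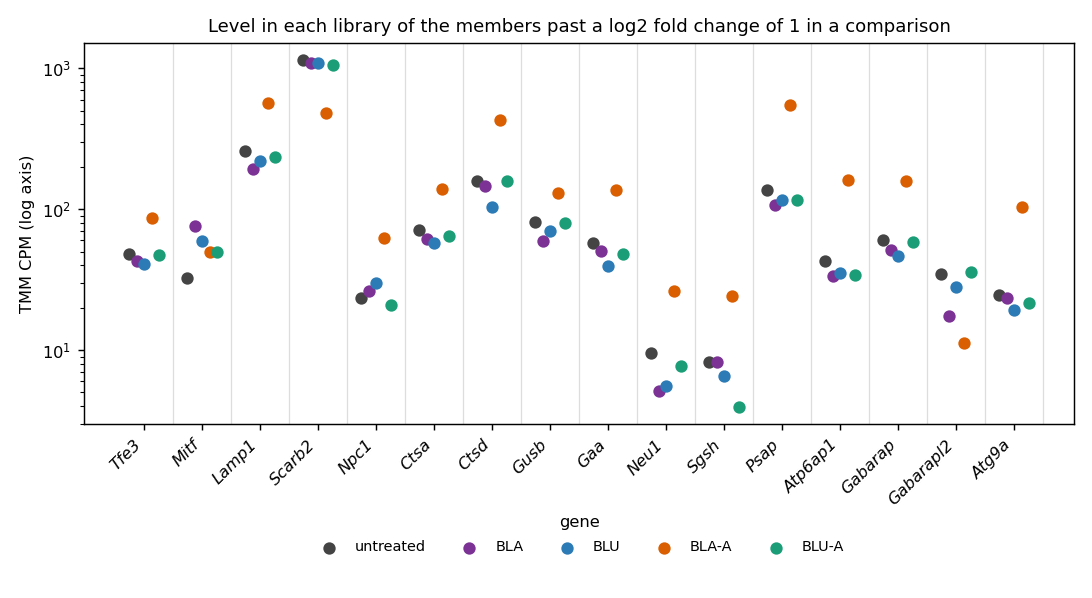
TMM CPM (log axis) in each of the 5 libraries for the 16 genes whose log2 fold change exceeded 1, up or down, in at least 1 comparison; each point is 1 library. The BLA-A point is the highest in 13 of the genes, and the lowest for Scarb2 and Gabarapl2, while for Mitf the BLA point is the highest.

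Whether the treatments together differed from untreated cells was tested with the 4 treated libraries as 1 group against the single untreated library (edgeR quasi-likelihood test, 3 residual degrees of freedom, spread taken from the differences between treatments). No member reached an adjusted p under 0.05 after Benjamini-Hochberg adjustment over all genes, where 4 genes or 0.0227% did. The lowest adjusted p of any member was 1.00 by edgeR and 0.930 by DESeq2. Unadjusted p-values under 0.05 were found for 2 members by either tool, against 2.72% of all genes by edgeR and 768 of 17594 by DESeq2. They were Uvrag (log2 difference 0.67) and Mitf (0.87), and both were higher in 4 of 4 treated libraries. Without the BLA library or without the BLU library neither remained under 0.05, and the same held with scaling by total counts. The fits without BLA or without BLU had 2 residual degrees of freedom. Their differences were 0.72 and 0.89 for Mitf, and 0.64 and 0.68 for Uvrag. The median difference of the members was 0.17, and it turned to -0.09 without the BLA-A library.

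The particles were next set against the plain extracts, which asks whether presentation as gold nanoparticles went with a difference beyond the fruit itself. With BLA-A and BLU-A against BLA and BLU in a fit of all 5 libraries (edgeR quasi-likelihood test, 2 residual degrees of freedom), the members had a median log2 difference of 0.26, against -0.05 over all genes. No member reached an adjusted p under 0.05, and neither did any other gene (0.0% of those tested). DESeq2 called 36 genes, none of them a member. The 3 members with the highest difference were Neu1 (1.65, SE 0.58), Psap (1.58, SE 0.61) and Atg9a (1.55, SE 0.64), and the 3 lowest were Scarb2 (-0.50, SE 0.34), Mitf (-0.44, SE 0.25) and Gabarapl1 (-0.40, SE 0.27). The lowest adjusted p of any member was 0.698 by edgeR and 0.177 by DESeq2. At an unadjusted p under 0.05, 7 members were higher by edgeR, against 6.05% of all genes. The 7 were Lamp1, Ctsd, Neu1, Psap, Atp6ap1, Gabarap and Atg9a. By DESeq2 11 members passed, against 1503 of 17594 genes. With only genes of a mean of 10 CPM, edgeR gave 3 of 41 members, against 572 of 9764 genes. With no filter it gave 13 members, against 2318 of 29369 genes. The contrast depended on which libraries were in it. Each fit without 1 library had 1 residual degree of freedom, and without the BLU library the median member difference was 0.36. Without the BLU library no member had an unadjusted p under 0.05 by edgeR. Without the BLA-A library 3 members did, the median member difference was 0.05, and that of Atp6ap1 turned from 1.51 to -0.01. Without the BLU-A library, which left BLA-A as the lone nanoparticle library and assumes that it varies like the extracts, 22 members passed an adjusted p of 0.05, 20 of them higher, among 4124 genes or 23.4% of all. With no filter on low counts, 8 members passed, among 569 of 29369 genes.

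Within each fruit the particles were compared with the extract of the same berry, without a test. In blackberry 13 members were higher and 1 lower past a log2 fold change of 1 (background 11.6% and 13.0%), and the median was 0.40 against -0.08 over all genes. Higher were Psap (2.35), Atp6ap1 (2.25), Neu1 (2.24), Atg9a (2.12), Gabarap (1.61), Lamp1 (1.56), Ctsd (1.55), Sgsh (1.51), Gaa (1.42), Npc1 (1.23), Ctsa (1.17), Gusb (1.11) and Tfe3 (1.03). Scarb2 was lower, at -1.17. Scaled by total counts alone, Tfe3 and Gusb read 0.87 and 0.95 and no longer passed. In blueberry none of the 43 passed in either direction (background 2.89% and 3.8%), and the values ran from -0.72 in Hexa to 0.61 in Ctsd, with a median of 0.02. Few well-expressed genes passed in blueberry at all. Among the 9770 genes with a mean of at least 10 CPM, 28 were higher and 7 lower there, against 1135 and 575 in blackberry. These comparisons share no library. Of the 20 members over 0.5 in blackberry, 14 were also above 0 in blueberry and 1, Ctsd, was over 0.5. Among all genes with a mean of at least 10 CPM, 69.0% of those over 0.5 in blackberry were above 0 in blueberry, so the members' 14 of 20 was near the background.

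**Figure D3:**
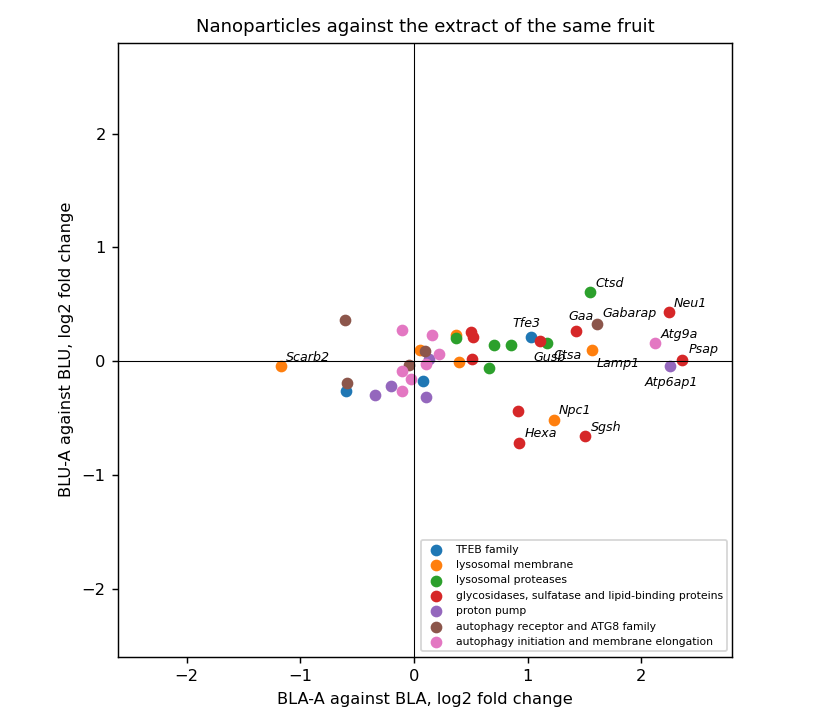
Log2 fold change of nanoparticle against extract in blackberry (horizontal axis) and in blueberry (vertical axis) for the 43 genes, coloured by role; each value compares 1 library with 1 library. The points spread from -1.17 to 2.35 along the horizontal axis and from -0.72 to 0.61 along the vertical one.

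Other genes of the same pathways, from lists written from general knowledge, were placed beside the members. With BLA-A the median log2 fold change was 0.44 over 33 other lysosomal hydrolases and activators, 0.32 over 32 other membrane and sorting genes, 0.66 over 15 other proton pump subunits and 0.25 over 41 other autophagy genes. It was 0.17 over 24 genes of mTORC1 and nutrient sensing and 0.21 over 17 genes of the lysosomal damage response. Past a log2 fold change of 1 with BLA-A, the counts higher and lower were 3 and 0 hydrolases, 4 and 0 membrane and sorting genes, 3 and 1 pump subunits, 2 and 0 autophagy genes, 3 and 0 mTORC1 genes, and 1 and 1 damage response genes. The background was 8.55% of all genes higher and 12.3% lower, so the higher counts lay near it or, in the pump, rested on 3 genes. Past 0.5 with BLA-A, the counts were 14 and 1 hydrolases, 12 and 3 membrane and sorting genes, and 10 and 1 pump subunits. They were 12 and 3 for autophagy, 8 and 2 for mTORC1 and 4 and 2 for damage response genes, against 23.4% and 26.0% of all genes. Past 1 with BLA (background 7.91% higher and 8.51% lower), 1 membrane and sorting gene and 2 autophagy genes were higher. Lower with BLA were 1 hydrolase, 1 pump subunit, 2 autophagy genes and 1 mTORC1 gene. With BLU (5.64% and 4.62%), 1 autophagy gene was higher, and 1 membrane and sorting gene, 1 pump subunit and 1 autophagy gene lower. With BLU-A (3.39% and 4.49%) the only calls in these 6 lists were 2 lower pump subunits. The list medians with BLU-A lay between -0.16 and 0.04.

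Among the listed genes with a mean of at least 10 CPM, most of the largest changes were with BLA-A. Below that level the lowest values were with BLA, at -1.97 in the pump list and -1.69 in the autophagy list. The phospholipase D family exonuclease Pld3 was at 35.1 CPM with BLA-A against 10.0 in untreated cells, and the acid sphingomyelinase Smpd1 at 28.7 against 8.28. Tmem106b, a membrane protein of late endosomes and lysosomes, was at 101 CPM with BLA-A against 30.5, and Laptm4a at 250.4 against 82.0. Lamtor1, which anchors the Ragulator complex of mTORC1 signalling, was at 41.7 CPM with BLA-A against 11.7, and the mTORC1 inhibitor Akt1s1 (PRAS40) at 54.2 against 19.8. The damage sensor Lgals3 (galectin-3) was at 170.3 CPM with BLA-A against 80.1 in untreated cells, while the ESCRT-III subunit Chmp2a was at 20.8 against 70.4. A pair of autophagy genes had their largest change with BLA instead: Ambra1, a regulator of Beclin 1, was at 173 CPM with BLA against 69.2 in untreated cells, and Atg10, the E2-like enzyme for ATG12, at 46.0 against 16.9.

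**Figure D4:**
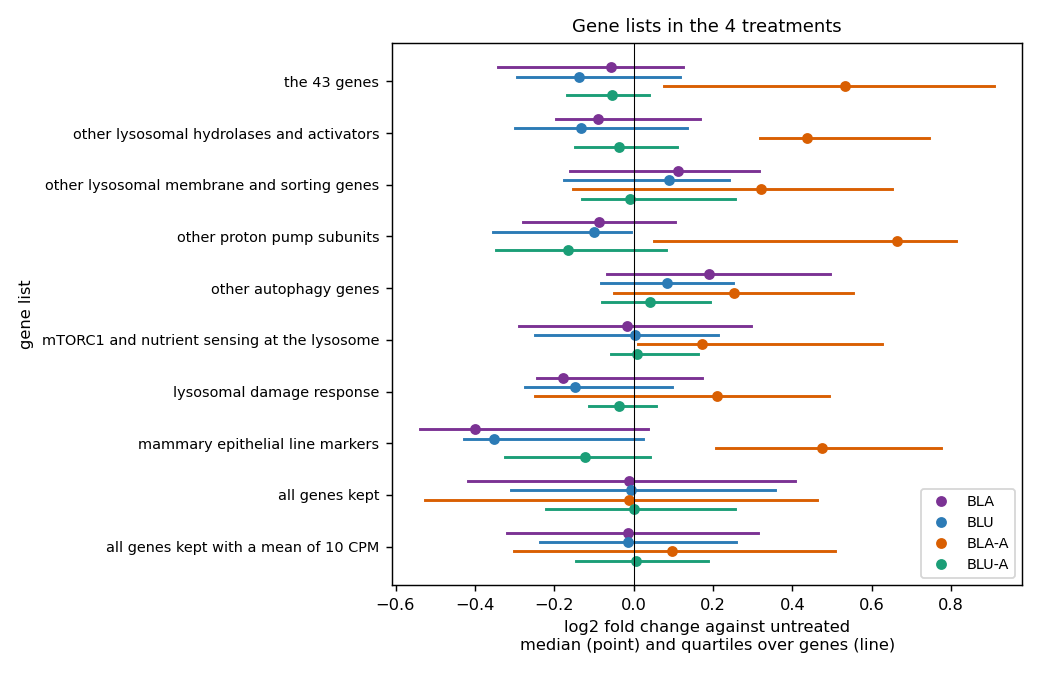
Median (point) and quartiles over genes (line) of the log2 fold change against untreated cells for the 43 genes, 6 other pathway lists, epithelial markers and all genes, in the 4 treatments. In the 43 genes the BLA-A median is 0.53 and the other 3 medians lie between -0.14 and -0.06.

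The identity of the cells was checked on marker lists. All 8 mammary epithelial markers had over 3 counts in every library, and their summed level was 1008 to 1335 CPM in 4 libraries and 1789.9 CPM with BLA-A. Against untreated cells 1 of 8 was higher past a log2 fold change of 1 with BLA-A (background 8.55%), and against BLA 4 of 8 were (background 11.6%). Epcam, an adhesion protein of epithelial cells, went the other way, at 39.8 CPM with BLA-A, 50.1 with BLA and 68.9 in untreated cells, and the splicing regulator Esrp1 was at 35.8 CPM with BLA-A and 35.3 in untreated cells. Leukocyte markers, which include lysosomal genes of macrophages, summed to 19.6 to 21.0 CPM in 4 libraries and to 30.7 CPM with BLA-A, and the excess was in Cd14 (20.4 CPM with BLA-A, 8.52 in untreated cells). Lyz2 was at 0 counts in all 5 libraries, and Ptprc was at 0.288 CPM with BLA-A, below the untreated cells. Of the 7 fibroblast and endothelial markers, Pdgfra was at 86.1 to 102.4 CPM, the other 6 did not exceed 2.22 CPM, and Lum was at 0. The part of cell composition in these values was not tested, and in bulk RNA fewer cells of a type and less RNA per cell cannot be told apart.

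Gene span, the distance from first to last annotated base, moved with the changes, and reads had been counted on whole genes with introns. The 3 members higher in all 4 treatments past 0.4 on the log2 scale were the 3 longest: Mitf spans 214 kb on chromosome 6, Atg7 218 kb on chromosome 6 and Uvrag 257 kb on chromosome 7, where the median member spans 18.1 kb. Over the 43 members Spearman's rho of log2 fold change with span was 0.51 with BLA, 0.71 with BLU, 0.49 with BLU-A and -0.38 with BLA-A. Over 9510 genes with a mean of at least 10 CPM it was 0.52, 0.55, 0.37 and -0.03. The genes of each such correlation come from the same libraries, so these are descriptions. With BLA-A, 8 of the 23 members in the shortest of 3 equal-sized span classes of all well-expressed genes (up to 18.9 kb) were higher past a log2 fold change of 1, against 13.4% of all genes in that class, a comparison added after the data were seen. Their median was 0.70, and that of all genes in the class 0.16. In the middle class the medians were 0.21 for 10 members and 0.02 for all genes, and in the longest class 0.23 for 10 members and 0.11 for all genes.

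**Figure D5:**
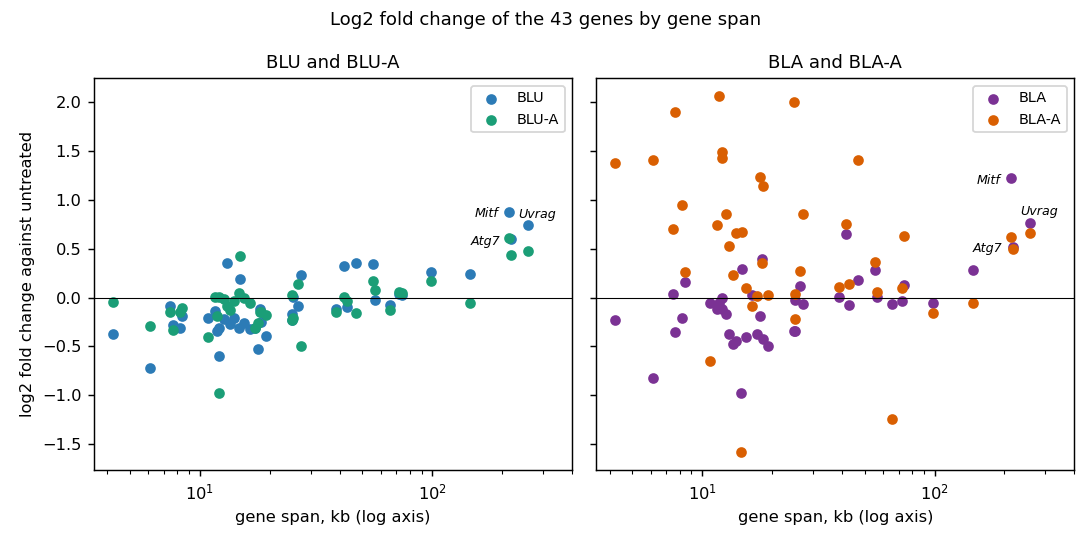
Log2 fold change against untreated cells by gene span in kb (log axis) for the 43 genes, with BLU and BLU-A on the left and BLA and BLA-A on the right; each point is 1 gene in 1 treatment. Mitf, Atg7 and Uvrag, at the right edge, are above 0 in all 4 treatments, while the values over 1 with BLA-A lie among genes shorter than 50 kb.

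The 11 members with TCACGTG in their promoter had a median log2 fold change of 0.75 with BLA-A, with Atp6v1a the lowest at 0.10, and 4 of them were past 1 (Lamp1, Ctsd, Gaa and Sgsh). The 27 members with a promoter entry but without the longer form had a median of 0.35, from -1.58 to 2.06, and 5 were past 1. The members with the highest values, Atg9a, Psap and Atp6ap1, were among the latter. With BLA, BLU and BLU-A the medians of the 11 were -0.03, 0.03 and 0.01, and those of the 27 were -0.07, -0.19 and -0.10. The sets overlapped over most of their range. In 30 of the 43 members an annotated gene on the opposite strand overlaps, among them Grtp1 with Lamp1, Slc26a11 with Sgsh and Ankzf1 with Atg9a, and the authors counted by strand. A gene on the same strand overlaps 9 members, among them Ctsd, Ctsl, Atg7, Atg9a and Uvrag, and the part of such genes in the counts was not tested.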

How the data were processed

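The authors sequenced rRNA-depleted RNA from 4T1 cells. The columns are labelled as replicates and the paper's general statement is of biological replicates, while the sequencing supplement lists 1 set of raw reads per condition and 3 subsets of it. The authors deposited raw counts per gene in 15 columns, made by alignment with STAR to GRCm39 (RefSeq) and strand-specific counting on whole genes, introns included. The submitters' processing notes also name DESeq2 1.36.0. Deposited columns with the authors' own fold changes, p-values and enrichment scores were not used.

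The 3 columns of a condition (chi-square per degree of freedom under 1.5) were averaged to 1 library of 25613711 to 26956308 counts, at which 3 counts equal 0.111 to 0.117 CPM. The filter kept every gene that reached 1 CPM in any library. Counts were scaled by TMM in edgeR 4.0.16 (R 4.3.3), and fold changes are differences of log2(CPM + 0.5). The contrasts over libraries used edgeR's quasi-likelihood test with Benjamini-Hochberg adjustment over all 17594 genes, with DESeq2 1.42.0 as an alternative. The steps were tested on simulated data, and the outcome is not given here. The common coefficient of variation in edgeR was 0.45 for treated against untreated and 0.42 for nanoparticles against extracts. With 3 and 2 residual degrees of freedom, the lack of an adjusted p under 0.05 does not show that a gene was unchanged. Intervals are exact binomial (Clopper-Pearson) on the counts of 2 libraries, computed with scipy 1.17.1 on the averaged counts rounded to whole numbers. Gene positions came from GENCODE M39 on GRCm39, of which the overlap with the table is 34459 of 40402 symbols, and promoter sequences from RefSeq on GRCm38.p6. Replicate numbers run from 1 to 3 in each condition. Same-numbered columns did not deviate together (mean correlation -0.0003 over 30 pairs), so no block was used.

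The members, roles, lists and tests were chosen with earlier results of these data known. Values in every library are given for members past a log2 fold change of 1 in any comparison, for the 2 largest and the 1 smallest change in each role group and for the 3 highest and 3 lowest members of the contrast between nanoparticles and extracts. From the other lists up to 3 genes with the largest change among those with a mean of at least 10 CPM were eligible. Ctsl, Gusb and Sqstm1 are shown to complete their groups and were picked with their values in view. Alternatives covered the scaling, the filter, the pseudocount, single columns, the test and leaving out libraries. Protein sequences were not used here.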

Additional observations from a re-analysis of the deposited data

Results flagged for a closer look

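Among the 4 treated libraries, 7 members had 1 library whose log2 level stood far from the other 3, with a gap to its nearest neighbour, as a share of the whole range, above Dixon's 95% critical value. It was the BLA-A library in all 7 cases. The gap as a share of the range was 0.968 for Atp6ap1 (162 CPM against 33.6 to 35.3), 0.952 for Scarb2 (484 against 1051 to 1093, the single case with BLA-A lowest), 0.949 for Psap (549.6 against 107 to 116), 0.880 for Atg9a (104 against 19.2 to 23.6), 0.871 for Ctsa (139 against 57.4 to 64.4), 0.836 for Ctsl (1397 against 759 to 839) and 0.836 for Glb1 (61.5 against 40.2 to 43.1). Chance marks about 1 in 20 groups in this way. Of all genes kept, 9.64% were marked, against 16.3% of the members. The conditions are different treatments and not replicates, so a library can stand apart through its treatment or as a library, and these cannot be told apart with 1 library each.

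For 3 members the nanoparticle differed from the extract in opposite directions in the 2 fruits, past 0.5 in size in each. The blackberry difference minus the blueberry difference was 2.17 for Sgsh (1.51 and -0.66), 1.74 for Npc1 (1.23 and -0.51) and 1.64 for Hexa (0.92 and -0.72). With 1 library in each condition this difference was not tested.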

How the results depend on the processing

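Of the 133 recomputed values that answer a comparison, 122 were classed as the same and 11 as moved. The class of the same allowed counts to shift. Members higher with BLA-A ran from 9 to 11 around 10, and those higher in BLA-A against BLA from 11 to 15 around 13. Of 300 further values, for single genes and unadjusted counts, 210 were the same, 57 moved, 32 were stronger and 1 reversed. Scaling by total counts alone shifted the median of all genes in BLA-A by -0.17 and moved the member median there to 0.34 and that of BLA-A against BLA to 0.24; Lamp1 in BLA-A then read 0.95, and Tfe3 and Gusb against BLA 0.87 and 0.95, so these were no longer past 1, and 1 member was lower past 1 in BLA. DESeq2 size factors gave 1 lower member in BLU-A, and with no filter the BLA-A median was 0.64. Of the 10 members higher in BLA-A, 9 were shared under total-count scaling or with only genes of a mean of 10 CPM, and all 10 under the 4 other settings. Treated against untreated, 0 members had an adjusted p under 0.05 in each fit that left out a library. Nanoparticles against extracts gave 8 members with no filter and 0 to 22 when 1 library was left out, the 22 without BLU-A, and the difference of Atp6ap1 ran from -0.012 without BLA-A to 2.33 without BLU-A. Treating the 15 columns as separate samples gave 5 and 28 members in these contrasts, against 20.1% and 50.5% of all genes. With a replicate block it gave 4 and 25, against 14.1% and 43.9%. Those counts hold only if the columns are separate cultures, which their agreement below sampling noise and the listed read subsets do not show. With the fruit as a block no member passed.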
